A study of Mus musculus with 18 samples.

Results

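Hepatic mRNA of 10 genes that bring fatty acids into the cell and activate them was examined in mouse liver by RNA-sequencing. The genes were chosen by name for their role, with earlier results of these data known. They were Cd36, Slc27a2 and Slc27a4 (uptake at the membrane), Fabp1 and Fabp2 (binding in the cytosol), Acsl1, Acsl3 and Acsl5 (activation to acyl-CoA), and Lpl and Vldlr (release from and uptake of lipoproteins). They are 10 of the 52230 genes to which the quantified transcripts were joined. The mice were of the GCKR-P446L-EMI-B6N line, in which the glucokinase regulatory protein (GKRP) carries either proline (446P, PP genotype) or leucine (446L, LL genotype). The labels name no tissue-specific driver for this line. All mice were kept on standard chow, and 1 liver library was made per mouse: 8 from males (PP n = 4, LL n = 4) and 10 from females (PP n = 5, LL n = 5). Age by label was 9 to 14 weeks in PP of either sex, 13 to 14 weeks in male LL and 11 to 14 weeks in female LL, whereas the series design states 14 weeks for all. The libraries are whole liver, so fewer cells of a type and less RNA per cell cannot be told apart.

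Long-chain fatty acids reach the hepatocyte bound to albumin or inside lipoprotein remnants. CD36 and the FATP proteins encoded by the Slc27 genes promote their entry, FABP1 carries them through the cytosol, and the acyl-CoA synthetases (ACSL) couple them to coenzyme A, which traps them in the cell and commits them to oxidation or esterification. Several of these genes are targets of PPAR alpha, a nuclear receptor activated by fatty acids, and liver lipid uptake in rodents is known to differ between the sexes. Lipoprotein lipase (LPL) releases fatty acids from triglyceride-rich particles at the vessel wall, and the VLDL receptor binds such particles; the mRNA of both is low in adult liver.

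Total estimated counts ranged from 3794671 to 6613905 per library. The liver label was borne out by the hepatocyte markers (6 of 6 tested, summed normalized count 463929 to 860709), whereas the defining adipocyte markers Adipoq, Lep and Retn were at 0 in all 18 libraries and the 6 adipocyte markers, carried by Car3 (group means 6575 to 11290), which hepatocytes also express, summed to 4990 to 15152. The 4 cholangiocyte markers summed to at most 10.8. Fragment length, estimated from the effective transcript lengths, was 369 to 631 bases in female PP and 247 to 377 bases in female LL (means 448 ± 108 and 292 ± 52.1, SD, n = 5; two-sided exact permutation test, p = 0.0159, adjusted p = 0.0951 over 6 tests of library properties). In males it was 396 to 630 in PP and 203 to 582 in LL (p = 0.286 by the same exact permutation test). Mitochondrial genes took up 12.5% ± 1.34 (SD) of the counts in female LL and 10.2% ± 1.11 in female PP (exact permutation p = 0.0317, adjusted p = 0.0951), and 12.6% ± 3.73 in male LL and 9.497% ± 1.0 in male PP (exact permutation p = 0.171, adjusted p = 0.257). The part of these properties in the genotype contrasts was tested only for fragment length, as a term in the fit. In female PP against male PP, the hepatocyte sum was higher (759918 to 860709 against 463929 to 566085). Alb was called higher (means 666570 and 348169), and Serpina1c was called lower by DESeq2, with overlapping groups, and not by edgeR. Markers of 2 other cell types were higher in female PP as well. The 7 endothelial markers summed to 317 to 652 normalized counts in female PP against 160 to 298 in male PP, and 4 of 7 were called (6.45% of all genes were called in this contrast). The 6 stellate cell markers summed to 833 to 1120 against 336 to 691, and 4 of 6 were called. The acute phase genes were highest in male PP (summed 13120 to 52976) against 6818 to 15108 in male LL, where Saa1 and Saa2 were called lower by DESeq2 and not by edgeR; Saa1 stood at 12575 normalized counts in male PP 2 and at 591 to 2043 in the other male PP libraries.

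Per transcript length the 10 genes were ordered by level within each group, and the order was nearly the same in the 4 groups. Fabp1, the liver fatty acid binding protein, led with a mean of 14472 ± 3649 TPM (counts scaled by transcript length and library total) in male PP, 23789 ± 4385 in male LL, 24481 ± 5580 in female PP and 26908 ± 6037 in female LL (SD, n = 4, 4, 5 and 5), and its lowest library lay above the highest library of every other member. Slc27a2, which encodes FATP2, a transporter with very long-chain acyl-CoA synthetase activity, came next in each group with means from 446 to 641 TPM. Acsl1, the main long-chain synthetase of liver, followed in 3 groups with means from 248 to 349 TPM over all 4, and overlapped Slc27a2 in the 2 male groups and in female PP. Acsl5 lay from 104 to 269 TPM and was above Acsl1 in female LL, where the libraries of both overlapped. By normalized counts, not scaled by length, the female LL means were 1967 for Acsl5 and 4882 for Acsl1. The leading Acsl5 transcript held 88.2% of the Acsl5 counts in female LL but 27.7% of its TPM. The part of the transcript assignment in this order was not tested. Fabp2, the intestinal form of the binding protein, lay from 42.1 to 98.7 TPM and below Acsl5 without overlap in 3 of the 4 groups. A gap separated these 5 genes from the rest. Cd36 (means 3.84 to 19.8 TPM) and Acsl3 (4.62 to 8.28 TPM) overlapped each other in every group, as did Slc27a4 (1.98 to 3.29 TPM) and Lpl (1.73 to 2.99 TPM) in 3 of 4. Vldlr had the lowest mean, from 0.0131 TPM in male PP to 0.901 TPM in female LL, and overlapped Lpl in both female groups. TPM values are used here to order genes within a group and not to compare groups.

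**Figure D1:**
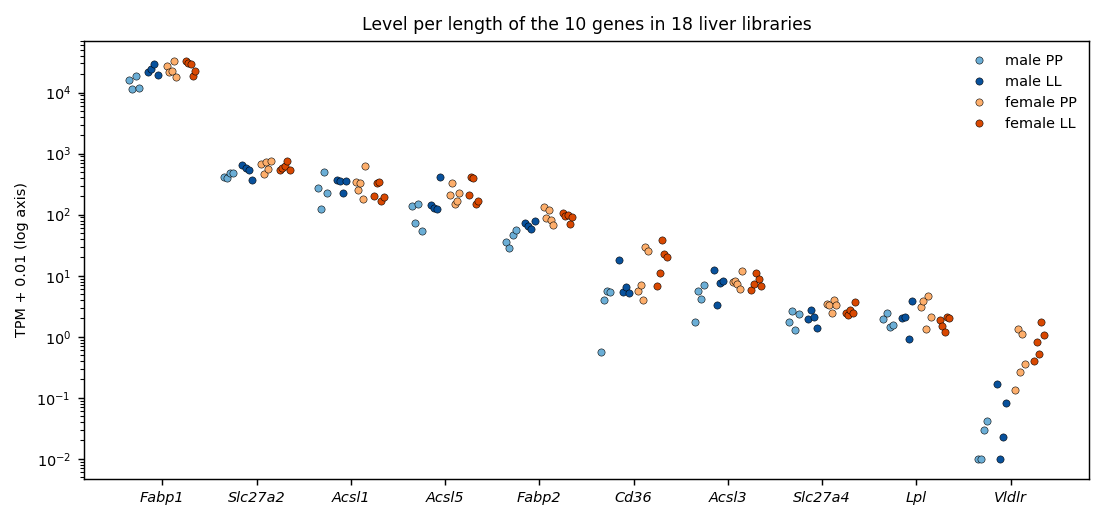
Level per transcript length of the 10 genes in the 18 libraries. The vertical axis is TPM + 0.01 on a log scale, each point is 1 library, colours mark the 4 groups, and genes are ordered by their mean. Fabp1 stands at 11307 TPM or more in every library, and Vldlr is at 0 TPM in 3 male libraries.

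The first question was whether the LL genotype changed these genes within each sex. Differentially expressed genes (DEGs) had an adjusted P below 0.05 over all tested genes (DESeq2 Wald test), and their fold was 1.3 or more, or 0.7 or less. In males 1 of the 10 genes, Acsl5, was a DEG by LL genotype, against 0.284% of the 10930 genes with a test (0.21% called higher and 0.0732% lower); 3 of 10 had an unadjusted P below 0.05 (7.83% of all genes). Independent filtering left 3301 genes with an adjusted P in this contrast, and 4 of the 10 members had none. In females 0 of 10 were DEGs against 0.659% of all genes (0.366% higher and 0.293% lower); 1 of 10 had an unadjusted P below 0.05 (13.1% of all genes did), and edgeR also called 0. For LL against PP averaged over the sexes, 0 of 10 were DEGs against 0.979% of all genes (0.595% higher and 0.384% lower), with 4 of 10 at an unadjusted P below 0.05 (13.8% of all genes) and 0 by edgeR. The estimates of 8 of 10 genes were above 0 in males and of 5 of 10 in females. The median log2 fold change of the 10 genes was 0.40 in males and 0.09 in females, beside medians of 7.854e-05 and 0.01 over all genes. The interaction of genotype with sex, which tests whether the LL effect differs between the sexes, called 0 of 10 (0.119% of all genes), with 1 of 10, Acsl5, at an unadjusted P below 0.05 (5.67% of all genes) and 0 by edgeR.

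The second question was whether the genes differed between females and males of one genotype. In PP mice 2 of 10, Acsl5 and Vldlr, were DEGs and both were higher in females, against 6.45% of all genes called (3.68% higher and 2.77% lower), and 5 of 10 had an unadjusted P below 0.05 (17.5% of all genes). In LL mice 1 of 10, Vldlr, was a DEG and higher in females, against 6.12% called (3.33% higher and 2.79% lower), and 4 of 10 had an unadjusted P below 0.05 (20% of all genes). Vldlr was among the tested genes only through the female libraries, where it was high. The groups did not overlap for 2 genes in PP and 1 in LL, the same DEGs, where 9.74% and 8.16% of all genes had groups that did not overlap. For the male genotype contrast this was 1 gene of 10 (4.07% of all genes) and for the female one 0 (2.66%). The 2 sex contrasts share no library with each other, but the sex contrast in PP and the genotype contrast in males both rest on the 4 male PP libraries.

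**Figure D2:**
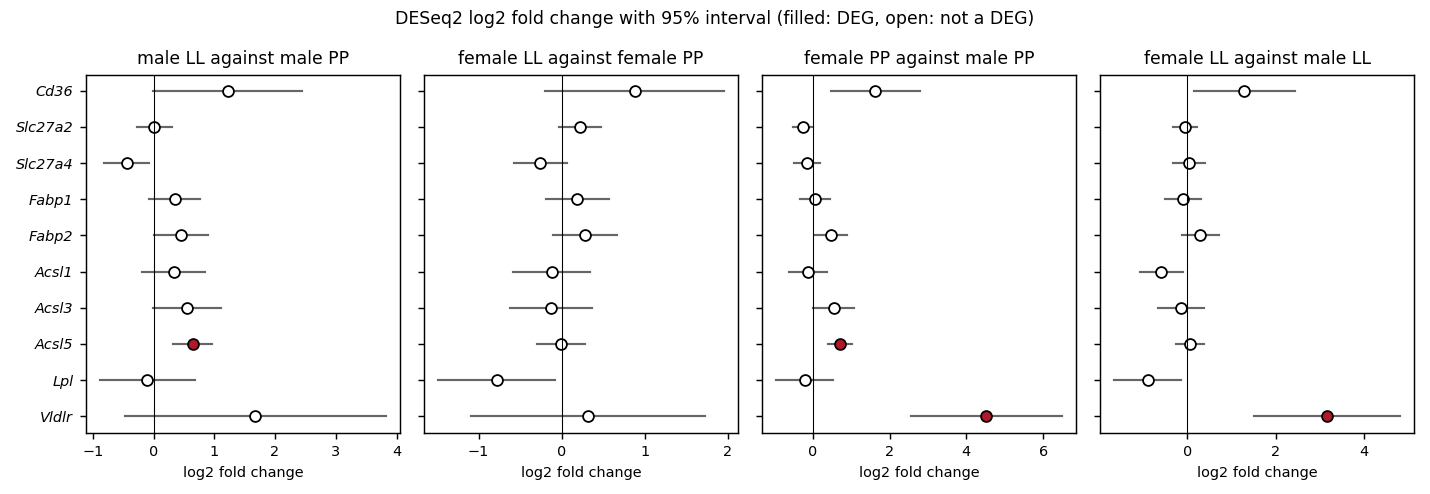
Log2 fold changes of the 10 genes in 4 contrasts. The horizontal axis is the DESeq2 log2 fold change, lines are 95% intervals, filled circles are DEGs and open circles are not. Acsl5 is filled for male LL against male PP (0.64) and female PP against male PP (0.71), and Vldlr is filled in both sex contrasts (4.52 and 3.16).

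Acsl5 encodes a long-chain acyl-CoA synthetase of the mitochondrial outer membrane and endoplasmic reticulum. It lies on chromosome 19 (55240267 to 55286153, plus strand, GRCm39). Male PP livers had 1135, 1198, 1238 and 1256 normalized counts, and male LL livers had 1784, 1798, 1835 and 2111. Every male LL liver was above every male PP liver. The female PP livers had 1890, 1919, 1979, 2048 and 2054, and the female LL livers 1311, 1502, 2038, 2352 and 2630. Thus male PP stood low, the male LL and female PP libraries lay between 1784 and 2111, and the female LL livers spread on both sides of that range with an SD of 557 against 53.4 in male PP, 154 in male LL and 74.0 in female PP. Acsl5 was higher by LL genotype in males (log2 fold change 0.64 ± 0.17, SE; 1.56-fold, 95% interval 1.24 to 1.96; DESeq2 adjusted P = 0.024) and did not differ detectably in females (-0.01 ± 0.15; 0.995-fold, 0.813 to 1.22; adjusted P = 0.991). The difference between these effects was -0.65 ± 0.22 with an unadjusted P of 0.00386 and an adjusted P of 0.167, which does not pass. Acsl5 was also higher in female PP than in male PP (0.71 ± 0.16; 1.64-fold, 1.32 to 2.03; adjusted P = 0.000296), whereas female LL and male LL were not distinguished (log2 fold change 0.06 ± 0.16, adjusted P = 0.878).

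The sex difference of Acsl5 in PP was called without each of the 18 libraries in turn (log2 fold change 0.68 to 0.73). The male genotype call was less firm, although the estimate lay between 0.58 and 0.67. The call ended in 7 of the 18 omissions, namely male PP 1, 2 and 4, male LL 1, 2 and 4, and female PP 5 (DESeq2 adjusted P from 0.051 to 0.232). The 18 include the female libraries, which are not in this contrast. Among the male libraries, the call held only without male PP 3 (DESeq2 adjusted P = 0.0398) or male LL 3 (0.0198). In the 7 fits that lost the call, independent filtering left 9234 to 10930 genes with an adjusted P. In the 11 fits that kept the call it left 1394 to 3726. With all 18 libraries and no independent filtering, 10930 genes had an adjusted P and Acsl5 stayed called (DESeq2 adjusted P = 0.0478). Within the fits that left out a library, the part of the filtering in the lost calls was not tested. edgeR gave 0.64 with an adjusted P of 0.321. An offset for average transcript length ended both calls (0.56 ± 0.51, DESeq2 adjusted P = 0.831, and 0.16 ± 0.48, DESeq2 adjusted P = 0.904). The SEs in the reported fit were 0.17 and 0.16. The reported fit shares 1 dispersion per gene over all groups, among them the widely spread female LL. With only the male libraries in the fit, the male genotype estimate was 0.65 ± 0.11 (DESeq2 adjusted P = 7.66e-06). The acute phase genes moved with the same male contrast, and their part in it was not tested; without male PP 2, where Saa1 was highest, Acsl5 gave 0.61 (adjusted P = 0.232). Of the 31-base words of the Acsl5 transcripts, 7.15% also occur in transcripts of other genes, mostly in Zdhhc6 (5.84%), a palmitoyltransferase gene on the opposite strand. The log2 fold change of Zdhhc6 itself was 0.04 ± 0.13 for male LL against male PP (DESeq2 adjusted P = 0.973). It was -0.35 ± 0.13 for female PP against male PP (DESeq2 unadjusted P = 0.00513, adjusted P = 0.066). For female LL against male LL it was -0.39 ± 0.13 (DESeq2 adjusted P = 0.0396), short of the fold limit. The genes with the residual pattern most like Acsl5 over the 18 libraries, after group means were subtracted, were Gm10252 (Pearson r = 0.952), Copb1 (r = 0.917) and Gng12 (r = 0.853), given as a description.

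**Figure D3:**
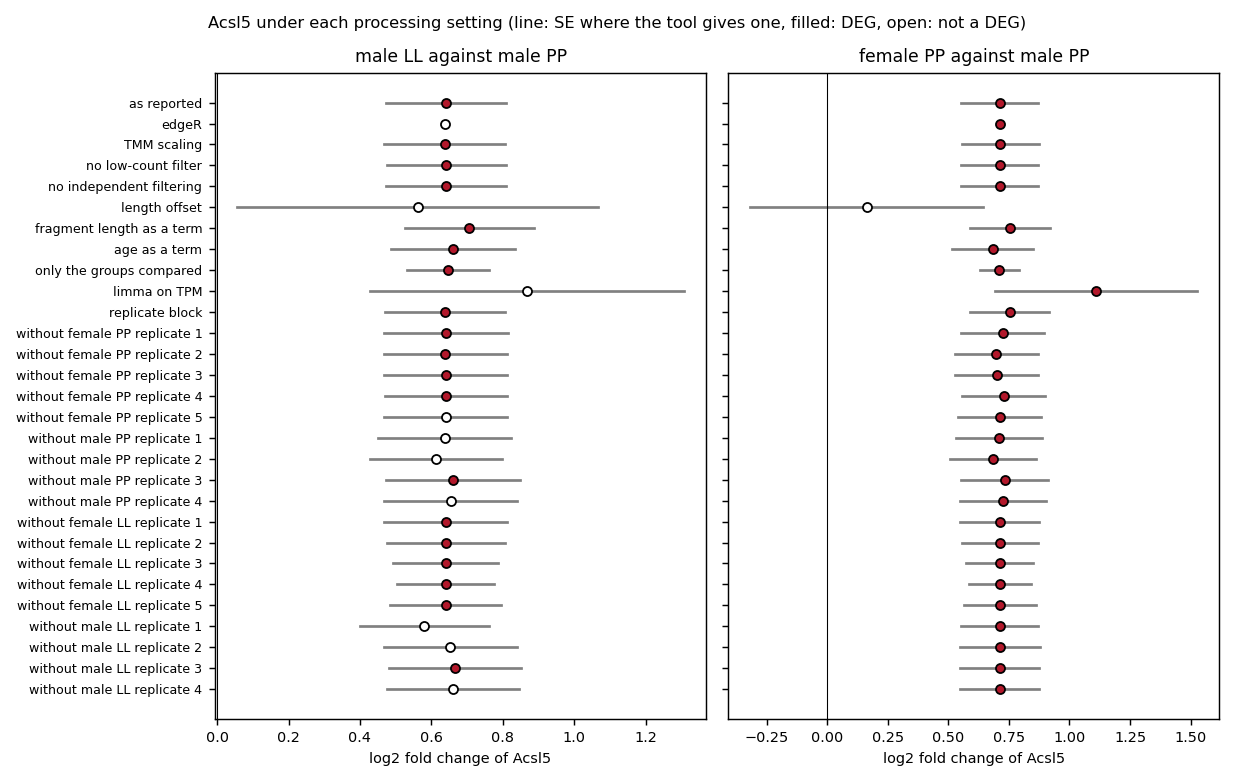
Acsl5 log2 fold change under each processing setting, with SE lines where the tool gives one. The left panel is male LL against male PP and the right panel female PP against male PP, and filled circles are DEGs. The left estimates stay above 0 in all 29 settings while the call is lost in 10 of them, and the right estimate is called in all but the length offset.

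Vldlr encodes the VLDL receptor, which binds triglyceride-rich lipoproteins. It lies on chromosome 19 (27193862 to 27231631, plus strand, GRCm39). Normalized counts were 0, 0, 1.88 and 2.70 in male PP, whereas male LL had 0, 0.892, 6.48 and 9.07. In females they were 6.39, 14.3, 17.4, 42.6 and 64.6 in female PP and 19.1, 26.7, 26.8, 33.9 and 74.0 in female LL. Every female liver of a genotype was above every male liver of that genotype, although the lowest female PP liver lay below the 2 highest male LL livers. Vldlr was 22.9-fold higher in female PP than in male PP (95% interval 5.85 to 90.0; log2 fold change 4.52 ± 1.01, SE; DESeq2 adjusted P = 0.000289) and 8.94-fold higher in female LL than in male LL (2.85 to 28.0; 3.16 ± 0.84; adjusted P = 0.00584). Male libraries held at most 7.01 estimated counts of Vldlr, so the size of both folds is poorly fixed and the gene passed the count filter through the female libraries. The genotype effect was not detectable at this depth in males (1.67 ± 1.10, unadjusted P = 0.127) or in females (0.31 ± 0.72, adjusted P = 0.883).

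Both sex calls of Vldlr remained without each of the 18 libraries in turn (log2 fold changes 3.96 to 5.32 in PP and 2.74 to 3.88 in LL) and in edgeR (4.33 and 3.14, adjusted P = 0.00752 and 0.0248). The count filter, which Vldlr passed through the female libraries, was the same in these fits, so they are no separate support for the sex difference. The endothelial and stellate markers were higher in female PP than in male PP. In LL the endothelial sum was 246 to 292 in males and 233 to 437 in females, and the stellate sum 595 to 924 and 492 to 1094. The part of these cell types in the Vldlr values was not tested. The residual pattern of Vldlr was most like that of Cth (r = 0.861), a transsulfuration enzyme gene, Serpina6 (r = 0.843), the corticosteroid-binding globulin gene, and Nqo2 (r = 0.812), over 18 libraries and as a description.

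The stretches below are the 150 bases before the annotated starts of the 2 genes called and of the most abundant member, shown as the sequence that precedes the members the results turn on. They come from RefSeq on the plus strand of GRCm38.p6, at chr19:55253219-55253368 for Acsl5, chr19:27216334-27216483 and chr19:27216870-27217019 for the 2 starts of Vldlr and chr6:71199729-71199878 for Fabp1. Capitals mark ATCGAT in Acsl5, a word of the CUX and ONECUT type, CCAAT (read on the other strand) at the second start of Vldlr, and in Fabp1 first a pair of AGGTCA-type half-sites 1 base apart (DR1, the PPAR type, 1 mismatch) and then TATAAA. Words left in lower case are CCAAT in Acsl5 (117 to 113 bases before the start), GGGCGG at the second start of Vldlr (42 to 37) and a further AGGTCA in Fabp1 (9 to 4, other strand), and the first start of Vldlr held none of the words searched.
Acsl5: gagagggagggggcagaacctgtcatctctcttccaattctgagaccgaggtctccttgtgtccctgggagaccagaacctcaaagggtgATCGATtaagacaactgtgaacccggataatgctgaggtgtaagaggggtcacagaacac
Vldlr, first start: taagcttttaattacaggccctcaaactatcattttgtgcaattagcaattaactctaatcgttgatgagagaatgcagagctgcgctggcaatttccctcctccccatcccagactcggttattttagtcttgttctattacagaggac
Vldlr, second start: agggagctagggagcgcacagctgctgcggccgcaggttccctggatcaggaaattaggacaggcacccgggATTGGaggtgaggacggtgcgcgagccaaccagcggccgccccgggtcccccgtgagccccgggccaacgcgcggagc
Fabp1: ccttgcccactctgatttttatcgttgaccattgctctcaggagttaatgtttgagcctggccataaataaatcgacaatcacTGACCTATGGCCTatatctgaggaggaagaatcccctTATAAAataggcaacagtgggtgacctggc

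In the 250 bases before the start, 9 of the 10 members had at least 1 RefSeq entry (11 in all; Acsl1 and Vldlr had 2 and Lpl none). Words were searched on both strands and could overlap. ATCGAT occurred only in Acsl5 among these 11, and in 0.728% of the 32851 promoters of the table. The DR1 pair with at most 1 mismatch occurred only in Fabp1 (0.484% of promoters) and the single half-site AGGTCA in Fabp1, Cd36 and Slc27a2 (14.0%). CCAAT occurred in 6 of the 11 entries (33.8% of promoters), GGGCGG in 6 (32.7%), TATAAA in Fabp1 (12.4%) and TCACNCCAC at the second start of Acsl1 (1.05%). TTCNNNGAA, the STAT type (7.02%), and CACGTG (6.02%) occurred in none of them. A match in these windows is a description of letters only.

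Cd36 encodes the fatty acid translocase, a scavenger receptor that binds long-chain fatty acids. It lies on chromosome 5 (17986432 to 18094067, minus strand, GRCm39) and had the widest range of the 9 members detected in every library, 30.1-fold over the 18 libraries. Normalized counts were 17.6, 42.0, 52.2 and 91.2 in male PP, whereas male LL had 83.2, 91.1, 105 and 196. In females they were 48.7, 78.25, 106, 222 and 333 in female PP, and 115, 166, 307.5, 331 and 530 in female LL. The 4 groups rose in that order by their means (50.7 ± 30.6, 119 ± 52.1, 158 ± 118 and 290 ± 163, SD), but each overlapped its neighbour. No contrast of Cd36 passed: the log2 fold change was 1.22 ± 0.62 by LL genotype in males (adjusted P = 0.443), 0.88 ± 0.55 in females (adjusted P = 0.454) and 1.05 ± 0.42 averaged over the sexes (2.07-fold, 95% interval 1.18 to 3.64; unadjusted P = 0.0116, DESeq2 adjusted P = 0.143). The female excess was 1.63 ± 0.59 in PP (unadjusted P = 0.00583, DESeq2 adjusted P = 0.0717) and 1.29 ± 0.58 in LL (adjusted P = 0.177). With age in weeks as a term, both sex differences became calls (2.17 ± 0.42, adjusted P = 1.95e-05, and 1.47 ± 0.39, adjusted P = 0.00633). With the same term the LL estimate fell to 0.37 ± 0.38 in females (DESeq2 adjusted P = 0.715) and was 1.07 ± 0.43 in males (DESeq2 adjusted P = 0.506). Without female PP 4, whose 333 is the highest of its group, the average over the sexes became a call (1.28, adjusted P = 0.0305).

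**Figure D4:**
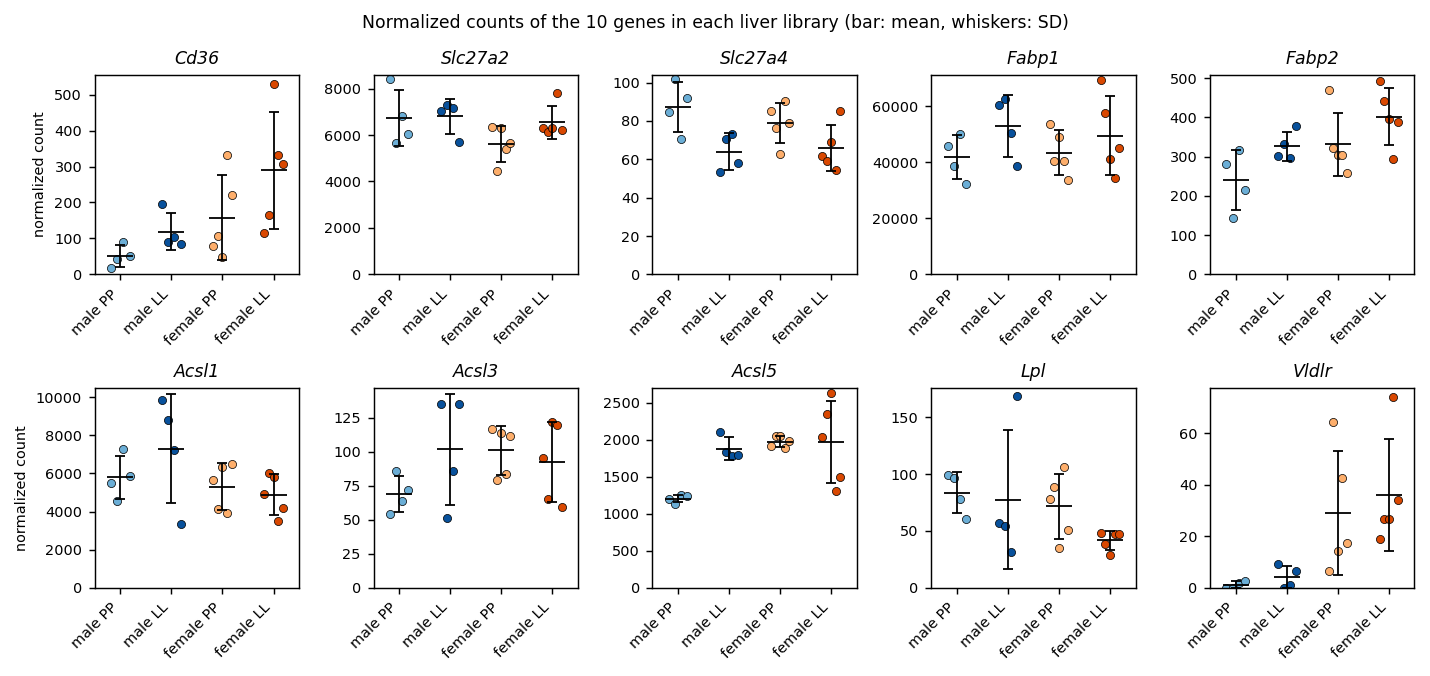
Normalized counts of each gene in the 18 libraries. Each panel is 1 gene with its own vertical axis from 0, points are libraries, bars are group means and whiskers SD. Acsl5 is low in male PP (1135 to 1256) and Vldlr is near 0 in males, while the 4 groups overlap in most other panels.

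The FATP transporter genes differed little. Slc27a2 ranged from 4455 to 8408 normalized counts over all libraries, with group means of 6734 ± 1215 in male PP, 6801 ± 737 in male LL, 5630 ± 774 in female PP and 6552 ± 717 in female LL (SD). The effect of LL was 1.01-fold in males (95% interval 0.832 to 1.23; adjusted P = 0.996) and 1.16-fold in females (0.978 to 1.38; adjusted P = 0.415). Slc27a4, which encodes FATP4, was lower in the LL means of both sexes without a call. Male PP livers had 70.5, 84.8, 91.8 and 102 normalized counts, and male LL livers had 53.1, 58.3, 70.7 and 73.2, where 2 male LL livers passed the lowest male PP liver. In females they were 62.9, 76.4, 79.1, 85.4 and 90.6 in PP and 54.3, 59.3, 61.9, 69.1 and 85.35 in LL. The log2 fold change was -0.44 ± 0.19 in males (unadjusted P = 0.0205, with no adjusted P after independent filtering), -0.26 ± 0.17 in females (adjusted P = 0.476) and -0.35 ± 0.13 averaged over the sexes (0.785-fold, 95% interval 0.661 to 0.932; unadjusted P = 0.00576, DESeq2 adjusted P = 0.104).

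The binding protein genes were abundant or moderate and not called. Fabp1 had group means of 41813 ± 7914 (male PP), 53099 ± 11005 (male LL), 43509 ± 7944 in female PP and 49598 ± 13950 in female LL normalized counts (SD). Its LL effect was 1.27-fold in males (95% interval 0.948 to 1.70; adjusted P = 0.57) and 1.14-fold in females (0.878 to 1.48; adjusted P = 0.696), and its sex differences were 1.04-fold in PP and 0.934-fold in LL. Fabp2 stood at 145, 216, 280 and 318 in male PP, at 296, 302, 332 and 377 in male LL, at 257.5, 304, 304, 321 and 469.5 in female PP and at 294, 387, 395, 442 and 492 in female LL. The lowest values were those of male PP, but 1 male PP liver lay within the male LL range. The log2 fold change of Fabp2 was 0.45 ± 0.22 in males (unadjusted P = 0.0442, DESeq2 adjusted P = 0.417) and 0.37 ± 0.15 averaged over the sexes (1.29-fold, 1.05 to 1.58; unadjusted P = 0.0142, DESeq2 adjusted P = 0.16).

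Acsl1 and Acsl3 were not called in any contrast as reported; the difference from Acsl5 was not tested. Acsl1 ranged from 3354 to 9839 normalized counts, and both ends came from male LL (mean 7312 ± 2849, against 5806 ± 1139 in male PP, 5310 ± 1231 in female PP and 4882 ± 1074 in female LL; SD). Its estimates were 1.26-fold by LL genotype in males (95% interval 0.877 to 1.81) and 0.919-fold in females (0.665 to 1.27), and 0.668-fold for female LL against male LL (0.474 to 0.941; unadjusted P = 0.021, adjusted P = 0.151). Without male LL 4, which held the lowest value, the last difference became a call (log2 fold change -0.82, adjusted P = 0.00449). Acsl3, a synthetase of lipid droplets and the endoplasmic reticulum, was 69.1 ± 13.4 in male PP, 102 ± 40.7 in male LL, 101.0 ± 18.2 in female PP and 92.3 ± 29.5 in female LL. Its largest estimates were 1.46-fold by LL genotype in males (0.990 to 2.16; unadjusted P = 0.056) and 1.46-fold in female PP against male PP (1.01 to 2.11; unadjusted P = 0.0455, adjusted P = 0.271), and the latter became a call with fragment length as a term (log2 fold change 0.74 ± 0.24, adjusted P = 0.0416). Of the words of the Acsl3 transcripts, 9.19% also occur in Utp14b, and of those of Acsl1 7.23% occur in Gm45244, so part of these counts could be assigned to either gene.

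Lpl was low, with 28.5 to 168.5 normalized counts. The values were 60.3, 78.0, 96.5 and 99.2 in male PP, whereas male LL had 31.2, 54.0, 57.0 and 168.5. In females they were 35.25, 50.7, 78.25, 89.1 and 106 in female PP and 28.5, 38.5, 46.9, 47.05 and 48.25 in female LL. Apart from the 168.5 of male LL 4, the LL livers of both sexes lay at or below 57.0, as did 2 of the female PP livers and none of the male PP livers. The log2 fold change was -0.78 ± 0.36 by LL genotype in females (0.582-fold, 95% interval 0.357 to 0.948; unadjusted P = 0.0297, DESeq2 adjusted P = 0.277), -0.10 ± 0.40 in males and -0.44 ± 0.27 averaged over the sexes (adjusted P = 0.401). Female LL against male LL gave -0.90 ± 0.38 (0.537-fold, 0.320 to 0.903; unadjusted P = 0.0191, DESeq2 adjusted P = 0.144). The female genotype estimate stayed between -0.95 and -0.60 when leaving out 1 library at a time. The male, averaged and LL sex estimates turn on male LL 4. Without it the averaged difference became a call (-0.80, adjusted P = 0.0177) and the male estimate was -0.82 (adjusted P = 0.387). That of female LL against male LL was then -0.17 (adjusted P = 0.824). Without male LL 3 the last became a call (-1.17, adjusted P = 0.0337) and the male estimate was 0.17. Macrophages also express Lpl, and the 7 Kupffer and macrophage markers summed to 475 to 758 in female LL against 785 to 978 in female PP and to 379 to 700 in male LL against 424 to 1098 in male PP. Their part in the Lpl values was not tested.

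The split of each gene among its annotated transcripts was examined where at least 2 transcripts held more than 5% of the estimate. This left Cd36, Slc27a2, Acsl3 and Acsl5, with 8 comparisons of LL against PP within a sex (two-sided exact permutation test on the share of the leading transcript). None passed after adjustment: the smallest p was 0.0317 (exact permutation, adjusted p = 0.254) for the leading Slc27a2 transcript in females, at 57.8% ± 7.0 in LL and 47.9% ± 3.43 in PP (SD, n = 5). That share moved with the shorter fragments of female LL, whose part was not tested. The 4 against 4 design in males cannot reach a p below 0.0286 by exact permutation. The leading transcript of Acsl5 held 81.4% to 92.9% of the Acsl5 estimate by estimated counts in all libraries, but 7.71% to 50.8% by TPM. That of Acsl3 held 60.2% to 95%. For Cd36 the leading transcript ranged from 0% to 88.6% between mice of one group, with the remainder on other transcripts of the gene. It was 69.2% in female LL 3 and 0% in female LL 4, and 0% in all 4 male LL libraries.

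**Figure D5:**
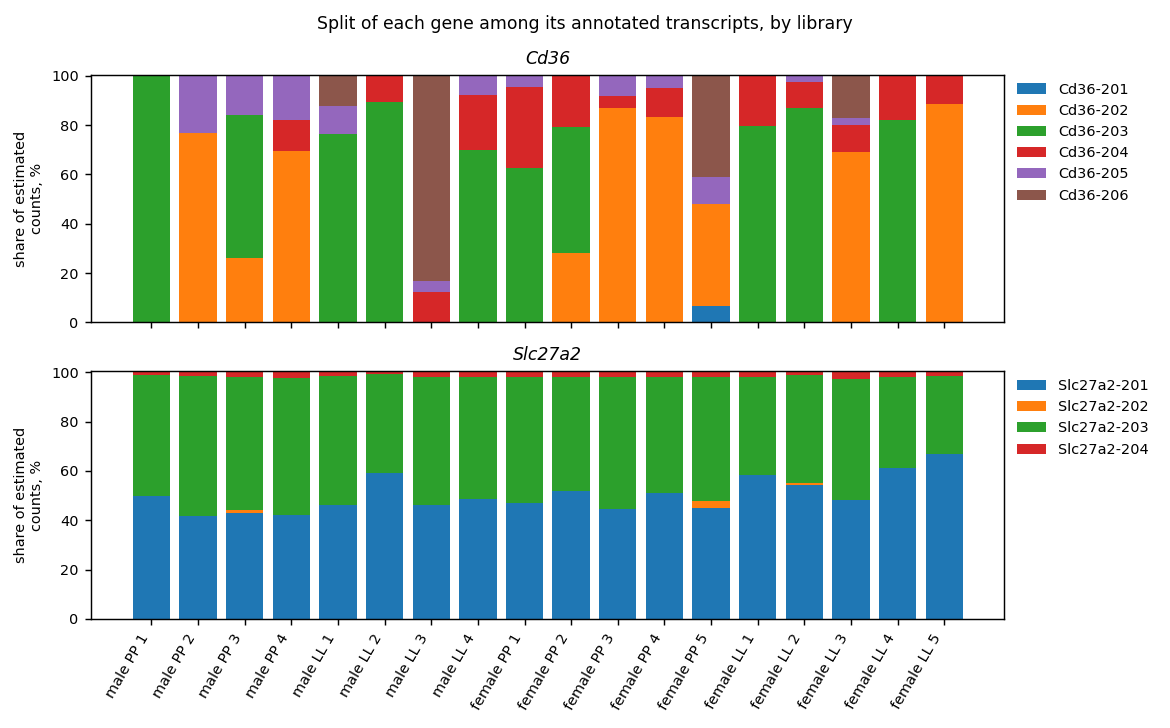
Share of each gene's estimated counts on its annotated transcripts in each of the 18 libraries, for Cd36 above and Slc27a2 below. Bars sum to 100% and colours are transcripts. The Cd36 estimate jumps between transcripts from mouse to mouse, while Slc27a2 splits between a leading transcript (41.6% to 66.8%) and others in every library.

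The other genes of the pathway were read from fixed lists, which were also chosen with earlier results of these data known. Of 34 further genes of fatty acid uptake, binding and activation, 22 were tested. In males 1 was called by LL genotype (0.284% of all genes), Acss3, a short-chain acyl-CoA synthetase of mitochondria, whose male means were 42.7 (PP) and 97.7 (LL) normalized counts (log2 fold change 1.18 ± 0.32, SE; DESeq2 adjusted P = 0.0333). The male groups of Acss3 overlapped (SD 15.2 in PP and 47.4 in LL). In females 0 were called by DESeq2. Averaged over the sexes 2 were called (0.979% of all genes), Acss3 (0.77 ± 0.21, adjusted P = 0.0183) and Dbi, the acyl-CoA binding protein (0.40 ± 0.10, adjusted P = 0.0104). edgeR called 0 of these by genotype (adjusted P = 0.378 for Acss3 in males, 0.142 and 0.131 for Acss3 and Dbi averaged). Between the sexes 3 were called in PP and 4 in LL (6.45% and 6.12% of all genes). Acss3 (2.29 ± 0.30 in PP and 1.47 ± 0.28 in LL) and Acss2, the cytosolic acetyl-CoA synthetase (0.72 ± 0.20 and 0.65 ± 0.20; edgeR adjusted P = 0.068 in LL), were higher in females. Scp2, which encodes sterol carrier protein and a peroxisomal thiolase, was lower in females (-0.87 ± 0.12 in PP and -0.97 ± 0.12 in LL), and so was Acsl4, the arachidonate-preferring synthetase, in LL (-0.62 ± 0.17). For Acss2 and Acsl4 the female and male LL groups overlapped. The medians of this list lay between -0.03 and 0.06 in the 6 contrasts, close to those of all genes.

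Of 18 genes of lipoprotein lipolysis and remnant uptake, 17 were tested and 0 were called by LL genotype in either sex. The median log2 fold change of this list was 0.49 for female PP against male PP and 0.50 for female LL against male LL. In PP 5 of 17 were called, all higher in females (3.68% of all genes were called higher), among them Sdc1, a remnant-binding syndecan (0.79 ± 0.17), Lipc, hepatic lipase (0.66 ± 0.15), Pltp, the phospholipid transfer protein (1.41 ± 0.35), and Gpihbp1, the endothelial anchor of lipoprotein lipase (1.07 ± 0.28). In LL 5 of 17 were called, all higher in females (3.33% of all genes): Lipc (0.85 ± 0.15), Sdc1 (0.67 ± 0.17), Pltp (1.33 ± 0.34), Apoc3, an inhibitor of lipolysis (0.84 ± 0.23), and Lrp1, a remnant receptor (0.62 ± 0.21; edgeR adjusted P = 0.0973). For Pltp and Lrp1 the female and male LL groups overlapped. Gpihbp1 is also one of the endothelial markers that were higher in female PP.

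Of 21 targets of PPAR alpha outside uptake, all were tested. In males 2 were called higher in LL (0.21% of all genes), and for both the groups overlapped. Cyp4a14, a fatty acid omega-hydroxylase, had means of 74.6 normalized counts in PP and 1178 in LL (log2 fold change 3.98 ± 0.70, DESeq2 adjusted P = 1.87e-05). Its values were 10.5 to 153 in male PP, and 106, 862, 1260 and 2486 in male LL. The lowest of the latter, in male LL 4, lay within the male PP range. Ehhadh, the peroxisomal bifunctional enzyme, gave 0.84 ± 0.24 (DESeq2 adjusted P = 0.0458). edgeR called 0 of these 2 (adjusted P = 0.0626 and 0.38). In females 0 were called by DESeq2. Averaged over the sexes 4 were called higher (0.595% of all genes; 0 by edgeR, adjusted P from 0.0816 to 0.143), Cyp4a14 (2.05 ± 0.47), Acot2, a mitochondrial thioesterase (1.16 ± 0.27), Acaa1b, a peroxisomal thiolase (0.63 ± 0.17), and Ehhadh (0.57 ± 0.16). In female PP against male PP 7 of 21 were called, all higher in females (3.68% of all genes). These were Cyp4a14 (6.09 ± 0.66), Cyp4a31 (1.87 ± 0.30), Acot2 (1.85 ± 0.40), Cyp4a10 (2.44 ± 0.58), Ehhadh (0.91 ± 0.22), Acot1 (1.74 ± 0.46) and Plin2, the lipid droplet coat protein (0.63 ± 0.21; edgeR adjusted P = 0.099). In LL 2 were called, both higher in females (3.33% of all genes), Acot2 (1.54 ± 0.37) and Cyp4a14 (2.22 ± 0.66). The interaction of genotype with sex was called for Cyp4a14 (-3.87 ± 0.93, DESeq2 adjusted P = 0.018; 0.119% of all genes), but in 15 of 28 settings only and not by edgeR (adjusted P = 0.385). Cyp4a10, Cyp4a14 and Cyp4a31, and likewise Acot1 and Acot2, are related genes, so reads may have been split among them. The sequence they share was not measured.

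Of 19 transcription factors that act on these genes, all were tested and 0 were called by LL genotype in either sex by DESeq2. Between the sexes 2 were called in PP and 3 in LL (6.45% and 6.12% of all genes). Cux2, a female-specific hepatic repressor of male-biased genes, was higher in females (1.56 and 62.2 normalized counts in male and female PP, log2 fold change 5.49 ± 0.81; 0.540 and 35.0 in LL, 5.98 ± 1.11). The male counts of Cux2 were near 0, so Cux2, like Vldlr, passed the count filter only through the female libraries. The size of both Cux2 folds is therefore poorly fixed. Bcl6, a male-biased repressor, fell by 2.09 on the log2 scale in PP females relative to PP males (SE 0.62). In LL, Nr1i3, the constitutive androstane receptor (0.93 ± 0.23), and Stat5b, which carries the growth hormone signal (0.65 ± 0.21, edgeR adjusted P = 0.0502), were higher in females. For Stat5b the LL groups overlapped.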

How the data were processed

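RNA was extracted by the authors from 18 mouse livers (Trizol, RNeasy, on-column DNase; RIN above 6). Reads were quantified by the authors with Salmon 1.4.0 (version per the labels) on GENCODE transcripts of GRCm39 without trimming, and the deposited tables give, per transcript, estimated counts and TPM. Library strandedness is not given in the sources used here. Of 139225 transcripts, 137570 were joined to genes by GENCODE M39 identifiers (at least 99.76% of the counts of each library), and estimated counts were summed per gene and rounded. Genes reaching 10 counts in 4 or more libraries (10938, all 10 members among them) were fitted in DESeq2 1.42.0 (R 4.3.3) in 1 model with 4 group levels and pairwise contrasts (the study's methods name DESeq2 with pairwise comparisons and do not state the model); 10930 obtained a P. Normalized counts are rounded counts divided by size factors. Adjusted P are Benjamini-Hochberg over all tested genes, and an adjusted P removed by independent filtering is left missing. Each library is 1 mouse, and P-values measure the spread between mice. In the DESeq2 fit the 4 groups share 1 dispersion per gene, so the spread within every group enters each contrast. edgeR 4.0.16 and limma 3.58.1, the latter on log2(TPM + 1), were alternatives. The DESeq2 and edgeR fits were tested on simulated data. Fragment length is the median difference between length and effective length over transcripts of at least 3000 bases. Intervals of 95% are Wald intervals.

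The members and gene lists were chosen with earlier results of these data known. The genes named are the 10 members, list genes called in the contrast at hand (at most 8 by adjusted P per list), and, for called members, the 3 tested genes with a mean of at least 50 normalized counts and the highest residual r of log2(normalized count + 1). Promoter words were chosen with the results known. Exact permutation tests were two-sided (scipy). One called gene of the lipoprotein list is not reported here.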

Additional observations from a re-analysis of the deposited data

Results flagged for a closer look

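In 68 sets of 4 or 5 libraries, comprising the members, the leading transcript shares and the library properties, 7 had a library far from the others by Dixon's criterion, where chance flags about 1 in 20. For the normalized count of Slc27a2, male LL 4 was low at 5705 (the others 7043 to 7276) and female LL 4 high at 7827 (the others 6111 to 6303). Acsl5 was high in male LL 1 at 2111 (the others 1784 to 1835), and without that library the log2 fold change in males was 0.58 with an adjusted P of 0.201 in DESeq2. Vldlr was high in female LL 4 at 74.0 (the others 19.1 to 33.9). For the share of the leading transcript, male PP 1 was high for Slc27a2 at 49.98% (the others 41.6% to 42.9%), female PP 5 low for Acsl3 at 60.7% (the others 80.3% to 83.7%), and male LL 4 low for Acsl5 at 81.4% (the others 91.9% to 92.7%).

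By the interaction term of DESeq2, the genotype effect was called different between the sexes for 4 genes of the fixed lists: Cyp4a14 (-3.87, adjusted P = 0.018), Alb (-0.61, adjusted P = 0.018), Saa1 (3.62, adjusted P = 0.0244) and Saa2 (4.28, adjusted P = 0.0274). edgeR called none of the 4 (adjusted P from 0.385 to 0.613). Over 28 settings the call held in 15 for Cyp4a14, 16 for Alb and 9 each for Saa1 and Saa2. The Saa1 and Saa2 values turn on male PP 2 (12575 and 7007 normalized counts, against 591 to 2043 and 184 to 461 in the other male PP libraries); without it the interaction was 1.80 for Saa1 (adjusted P = 0.0755) and 1.61 for Saa2 (adjusted P = 0.219). No member passed this test.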

How the results depend on the processing

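For male LL against male PP, the count of members called went from 1 to 0 with edgeR, with the length offset and with limma on TPM (0 to 1 when leaving out 1 library at a time). Averaged over the sexes it was 0 and for the interaction 0, and each was 0 to 1 when leaving out 1 library. For female PP against male PP it was 2, 1 with the length offset, 3 with age as a term (Cd36 added), 3 with fragment length as a term (Acsl3 added), 6 with limma on TPM, and 2 to 3 when leaving out 1 library. For female LL against male LL it was 1, 2 with age as a term, 2 with only the groups compared, and 1 to 2 when leaving out 1 library. limma on TPM shifted the median of all genes by 0.50 for female PP against male PP, so signs there are not comparable with those reported: Slc27a2 (0.50) and Slc27a4 (0.53) reversed and were called, and the uncalled Acsl1 (0.35) and Lpl (0.43) changed sign too. Of 1660 member estimates under alternatives, 1600 kept their sign.

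No replicate block was in the reported fit. Same-numbered mice did not deviate together in every pair (r from -0.169 to 0.159). With the replicate block the counts of members called were 1, 0, 0, 2, 1 and 0 in the 6 contrasts, as reported.

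Over all genes, DEGs by LL genotype in males were 31 (23 higher, 8 lower), 3 with edgeR, 53 with the length offset (28 higher, 25 lower), 0 with limma (1745 at an unadjusted P below 0.05) and 20 to 60 without 1 library. In females they were 72, 3 with edgeR, 28 with the length offset, 14 with fragment length as a term, 44 with age, 0 with limma (895 unadjusted) and 28 to 270 without 1 library, the last without female PP 4. Averaged over the sexes they were 107, 9 with edgeR, 44 with fragment length, 56 with age, 0 with limma (1140 unadjusted) and 69 to 179 without 1 library. For female PP against male PP they were 705 (402 higher, 303 lower) and 4307 with limma on TPM (4223 higher, 84 lower). For female LL against male LL they were 669 and 432 with fragment length. For the interaction they were 13, 0 with edgeR (676 unadjusted), 8 without independent filtering, 0 with limma (1657 unadjusted) and 3 to 27 without 1 library. The cause of these differences was not tested. Transcript shares passed no test by TPM or without 1 library, but the smallest p the exact tests allow (0.0286 in males and 0.00794 in females, before adjustment over 8 tests) left little room to pass. Male libraries held at most 7.01 estimated counts of Vldlr.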
